A study of Mus musculus with 4 samples.

Results

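Among 13619 nuclei of mouse bone marrow hematopoietic stem and progenitor cells (HSPCs), 285 were stem-like by their RNA, 206 of 5905 in library 1 and 79 of 7714 in library 2. Nuclei had been kept with at least 200 detected genes and 1000 to 50000 counts in peaks of chromatin accessibility (ATAC). A kept nucleus was called stem-like when it held at least 2 unique molecular identifiers (UMIs, each a counted RNA molecule) summed over Mecom, Hlf, Prdm16 and Myct1, and at most 1 UMI summed over the megakaryocyte genes Vwf, Itga2b and Trpc6. Stem-like nuclei made up 3.49% of library 1 (95% exact binomial interval 3.04 to 3.99%) and 1.02% of library 2 (0.812 to 1.27%). All other kept nuclei of the same library served for comparison.

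The cells came from 8-week-old male C57BL/6 mice. Ctrl mice stayed without ligatures, whereas Lig mice carried silk ligatures on their molars for 14 days, a model of ligature-induced periodontitis (LIP), and the bone marrow of 5 mice was pooled per group. Lin-cKit+ cells, which lack markers of mature lineages and carry the receptor cKit, were sorted, and RNA and ATAC were measured in the same nuclei. The labels list 4 groups, since each condition has an RNA and an ATAC entry, with 1 sample in each, so no replicate error could be estimated, no test was possible and no p-value is given. The deposited matrix pooled all nuclei under barcode suffixes 1 and 2. No label ties a suffix to a condition, so they are called library 1 and library 2, are assigned to neither condition, so a gap in values from one to the other is not taken for a response to ligature. Ranges in parentheses are 95% intervals and reflect only the error of counting.

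Hematopoietic stem cells sit at the top of the blood hierarchy, are mostly quiescent, and give rise to multipotent and then lineage-restricted progenitors. Mecom, Hlf and Prdm16 encode transcription factors needed to maintain these cells. Myct1 encodes a membrane protein found in endothelial and blood stem cells, and the stem cell program also includes Meis1 and Hoxa factors, the receptor Procr and the niche ligand Angpt1. A nucleus carries mostly unspliced RNA, so long genes give more UMIs than short ones, and no level is compared here between different genes.

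Stem-like nuclei were close to the other nuclei in UMIs and held more genes. In library 1 they held a median of 1768 UMIs and 781 genes against 1636 UMIs and 631 genes in the other nuclei, and in library 2 the medians were 1546 UMIs and 497 genes against 1516 UMIs and 409 genes. The median ATAC counts in peaks were 19226.5 against 19492 in library 1 and 13260.0 against 16309 in library 2. Genes at the ribosomal RNA locus took 37.6% of the UMIs of stem-like nuclei and 43.3% of those of the other nuclei in library 1, and 51.5% and 53.2% in library 2. These values moved with the groups, and counts without that locus are given beside the comparison of genes. No barcode sequence was stem-like in both libraries, although 72 sequences were kept in both. Of the stem-like sequences of library 1, 5 occurred among all barcodes of library 2, and 1 of library 2 occurred among those of library 1.

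The marker UMIs were few in each nucleus. Of the stem-like nuclei of library 1, 96 held 2 marker UMIs, 45 held 3, 27 held 4, 12 held 5 and 26 held 6 or more, whereas in library 2 the numbers were 55, 17, 6, 0 and 1. Just outside the rule lay 407 nuclei of library 1 and 459 of library 2 with 1 marker UMI, and 7 and 1 nuclei whose marker UMIs sufficed but which exceeded the limit on the megakaryocyte genes. Mecom was found in 159 of 206 and 67 of 79 stem-like nuclei, Hlf in 136 and 36, Prdm16 in 42 and 13 and Myct1 in 40 and 12. Only 1 of the 4 genes was detected in 31.6% of the stem-like nuclei of library 1 and in 39.2% of those of library 2. By construction the levels of these genes were high. Mecom (chr3:29951296-30548008, minus strand) stood at 899 and 851 counts per 1000000 counts (CPM) in libraries 1 and 2, and Hlf (chr11:90336536-90390895, minus strand) at 613 and 355 CPM. Prdm16 (chr4:154316125-154636873, minus strand) stood at 121 and 104 CPM and Myct1 (chr10:5593775-5606904, plus strand) at 121 and 111 CPM. These coordinates follow the GENCODE annotation of GRCm38, the build of the deposited files.

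The rule also met nuclei with UMIs of other lineages, at rates that differed between them. Of nuclei with at least 3 UMIs of the B lineage genes Ebf1, Pax5 and Igll1, 0.531% (0.195 to 1.15%) in library 1 and 0 of 306 in library 2 held 2 or more marker UMIs, the latter allowing a share of up to 1.20%. In nuclei with at least 5 UMIs of the granule proteins Mpo, Elane, Ctsg and Prtn3 the shares were 0.989% and 0.260%, at median depths of 2026.5 and 1800.0 UMIs. In nuclei with at least 2 UMIs of Flt3 and Dntt, the lymphoid-primed set, they were 6.92% (4.84 to 9.54%) and 2.07% (0.763 to 4.45%). The lymphoid-primed shares were above those of all nuclei, 3.49% and 1.02%. Conversely, 33 of 206 (16.02%) and 6 of 79 (7.59%) stem-like nuclei met the lymphoid-primed limit, against 8.04% and 3.72% of the other nuclei. The genes of that limit went opposite ways. Relative to the other nuclei, the level of Flt3 in stem-like nuclei was 2.80-fold (2.32 to 3.34) and 1.74-fold (1.06 to 2.71). That of Dntt was 0.498-fold (0.299 to 0.782) and 0.859-fold (0.278 to 2.02), on 19 and 5 UMIs. The B lineage or the granule protein limit was met by 17 (8.25%) and 5 (6.33%) stem-like nuclei, and that or the erythroid limit by 39.1% and 29.0% of the other nuclei. The limit on the erythroid genes Car1, Ank1, Klf1 and Epor was met by 0 stem-like nuclei and by only 0.439% and 0.0524% of the other nuclei, so a count of 0 is near that share.

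The first comparison asks whether genes that the rule did not use follow the markers. Angpt1, a ligand of the receptor Tek that stem cells and megakaryocytes produce, stood higher in each class with more marker UMIs. In library 1 its level was 223 CPM (213 to 232) in nuclei with 0 marker UMIs, 713 (655 to 775) with 1, 1459.8 (1289 to 1647) with 2 and 2074 (1886 to 2275) with 3 or more. In library 2 it was 103 (96.8 to 109), 291 (255 to 331), 590.1 (445 to 768) and 619 (404 to 907) CPM. The intervals of nuclei just inside the rule lay above those of nuclei just outside it in both libraries, and those of 2 and of 3 or more marker UMIs overlapped in library 2 alone. Meis1, a homeobox factor of stem cells and leukemia, gave 106, 325, 649 and 1009 CPM in library 1 and 49.7, 118, 247 and 286 CPM in library 2. Mpo, the myeloperoxidase of primary granules, ran the other way, with 908, 809, 427 and 398 CPM in library 1 and 1269, 1099.6, 612 and 405 CPM in library 2.

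**Figure D1:**
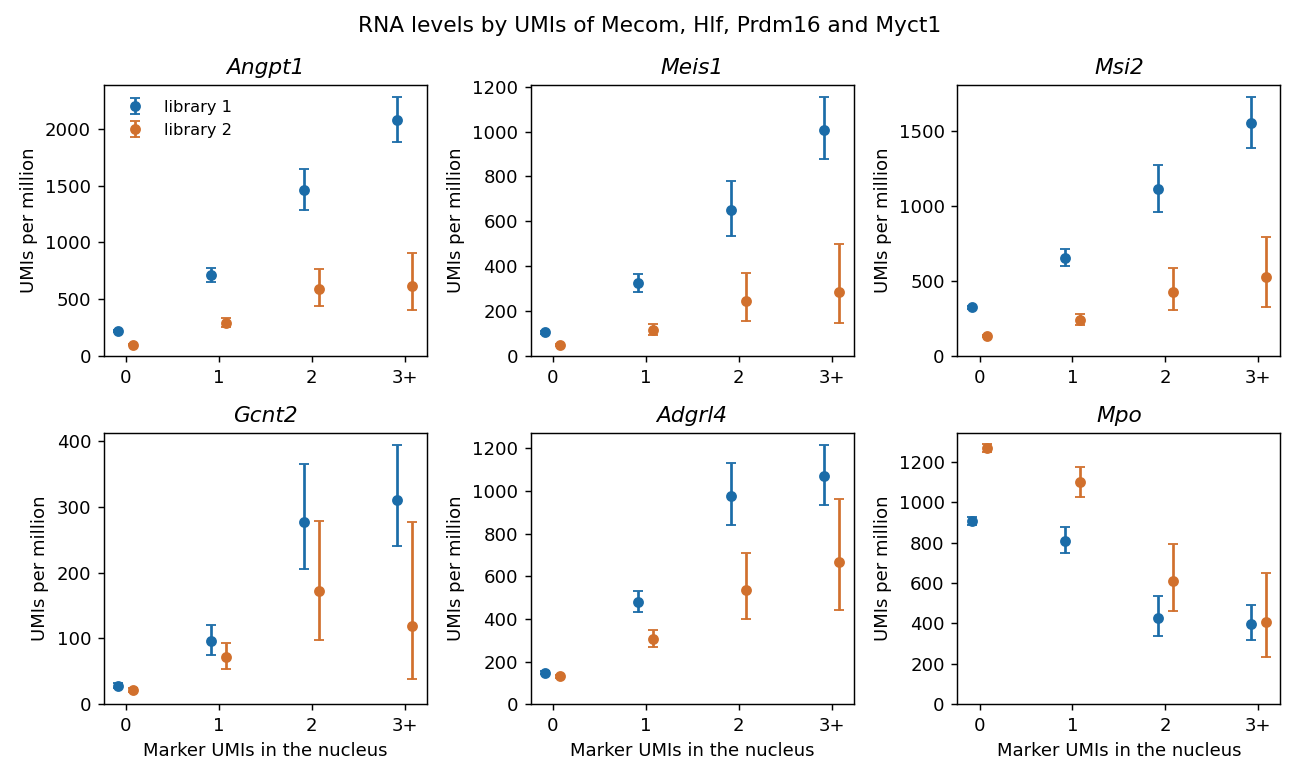
RNA levels (CPM, y axis) of 6 genes that the rule did not use, in nuclei with 0, 1, 2 and 3 or more UMIs of the marker genes (x axis), for library 1 (blue) and library 2 (orange). Points are summed levels of all nuclei in a class and bars are 95% Poisson intervals. The genes are among those with the highest or lowest ratios in stem-like over other nuclei. Angpt1 goes from 223 to 2074 CPM in library 1 and from 103 to 619 CPM in library 2, whereas Mpo goes from 908 to 398 and from 1269 to 405 CPM.

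Angpt1 was also compared per nucleus after each was thinned to 1000 UMIs, between stem-like and other nuclei and not by marker UMIs. Angpt1 was then detected in 68.5% (61.5 to 74.9%) of stem-like nuclei and 16.7% (15.6 to 17.8%) of the other nuclei of library 1, and in 38.6% (27.2 to 51.0%) and 9.28% (8.58 to 10.0%) in library 2. The background was lower, at 5.81% and 3.86% in the B lineage set and 7.24% and 3.54% in the granule protein set. Before thinning, the shares of nuclei with Angpt1 were 77.7% and 20.8% in library 1 and 55.7% and 12.9% in library 2. Thinning left out 9 stem-like nuclei in each library and 1031 and 1136 other nuclei that were too shallow.

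Genes known from stem cells were then examined with lists of 72 genes in all. Of these, 25 stood at least 2-fold higher in stem-like nuclei in both libraries with no minimum level, against 731 of 19868 genes (3.68%), and 3 (Nfib, Thy1 and Sult1a1) at least 2-fold lower, all with no UMI in stem-like nuclei, where 7406 of all genes (37.3%) were lower, mostly for lack of UMIs. Low genes make such counts uncertain, since 23 of the 72 genes had no UMI in the 79 stem-like nuclei of library 2. Among genes with at least 200 UMIs over all kept nuclei of each library, a minimum that does not look at the groups and was added after the values were seen, 10 of 26 listed genes were at least 2-fold higher and 0 were lower, against 80 of 4110 genes (1.95%) higher and 56 (1.36%) lower. The median log2 difference of the 26 genes was 1.32 in library 1 and 0.98 in library 2, and that of all 4110 genes 0.15 and 0.14. Summed over the 72 genes, the level was 11032 against 3959 CPM in library 1, 2.79-fold (2.70 to 2.88), and 4697 against 2051 CPM in library 2, 2.29-fold (2.11 to 2.48). Nuclei of the megakaryocyte set, which hold at least 2 UMIs of Vwf, Itga2b and Trpc6, reached similar sums of 10487 (9878 to 11124) and 4668 (4122 to 5267) CPM, as high as in stem-like nuclei within their intervals.

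Among transcription factors and their partners, Meis1 (chr11:18879817-19018985) stood at 846 against 125 CPM in library 1 and 259 against 54.1 CPM in library 2, 6.76-fold (5.97 to 7.63) and 4.79-fold (3.30 to 6.72). Lmo2, an adaptor of the TAL1 and GATA complexes, stood at 356 against 90.8 CPM and 200 against 65.7 CPM. Hoxa9, a homeobox factor that promotes self-renewal, gave 51 and 7 UMIs in stem-like nuclei, which placed it 6.89-fold (4.95 to 9.44) and 4.09-fold (1.62 to 8.63) above the other nuclei. Nkx2-3, a homeobox factor, showed the largest ratios among the factors past 2-fold in both libraries, 21.7-fold (11.3 to 41.4) on 20 UMIs and 12.5-fold (4.36 to 29.5) on 6 UMIs. Zfp521 (5.57 and 3.72-fold), Nr4a1 (4.14 and 3.06-fold), Rora (4.87 and 3.53-fold), Hoxa5 (5.00 and 6.12-fold), Mllt3 (2.75 and 3.87-fold) and Hmga2 (2.73 and 3.80-fold) were also past 2-fold in both libraries. Other factors of early hematopoiesis were not past 2-fold in both libraries. Etv6 stood at 2.31 and 1.83-fold, Erg at 1.69 and 2.49-fold and Tal1 at 1.96 and 2.27-fold. Runx1 was 1.31-fold (1.18 to 1.44) and 1.54-fold (1.21 to 1.94) higher and Fli1 1.49 and 1.55-fold, whereas Gata2 stood at 1.73-fold (1.07 to 2.67) on 22 UMIs in library 1 and 0.435-fold (0.0110 to 2.45) on 1 UMI in library 2.

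Surface proteins that define stem cells in flow cytometry gave few UMIs. Procr, the endothelial protein C receptor, had 5 UMIs in stem-like nuclei of library 1 and 1 in library 2, 31.2-fold (6.72 to 157) and 18.3-fold (0.388 to 164) above the other nuclei. Vldlr, a lipoprotein receptor, had 8 and 4 UMIs, 16.7-fold (5.91 to 44.3) and 6.44-fold (1.70 to 17.4), and Emcn, the sialomucin endomucin, 5 and 2 UMIs, 8.33 and 13.1-fold. Tie1, Esam, Robo4, Cd27 and Ly6a were past 2-fold in both libraries on 2 to 20 UMIs in library 1 and 1 to 4 in library 2. Slamf1 and the exchange factor gene Fgd5 had 5 UMIs each in library 1 and 0 in library 2, where the limit that 3 counts set is 22.2 CPM. Kit, the receptor used in the sort, was 2.14-fold (1.75 to 2.59) and 1.83-fold (1.08 to 2.91) higher, and Cd34 2.89-fold (2.23 to 3.70) in library 1 and 1.14-fold (0.518 to 2.17) in library 2. Cxcr4 and Ifngr1, receptors for the niche chemokine Cxcl12 and for interferon gamma, stood at 0.410-fold (0.132 to 0.966) and 0.365-fold (0.157 to 0.724) in library 1, and at 0.995-fold (0.322 to 2.34) and 0.734-fold (0.237 to 1.72) on 5 UMIs each in library 2.

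Outside both groups, Gcnt2, a glycosyltransferase that branches blood group I chains, stood at 295 against 33.6 CPM in library 1 and 155 against 24.8 CPM in library 2, 8.78-fold (7.05 to 10.9) and 6.25-fold (3.82 to 9.73), the first rank among genes with enough UMIs. Angpt1 (chr15:42424723-42676977) stood at 1795 against 262 CPM and 599 against 115 CPM, 6.84-fold (6.29 to 7.43) and 5.23-fold (4.13 to 6.54). Msi2, an RNA-binding protein of stem cells and leukemia, stood at 1350.4 against 352 CPM and 459 against 143 CPM, 3.83 and 3.20-fold. Rbpms (3.58 and 3.06-fold), an RNA-binding protein, and Gem (2.40 and 3.06-fold), a small GTPase, were past 2-fold as well, Gem on 12 UMIs in library 1 and 2 in library 2.

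**Figure D2:**
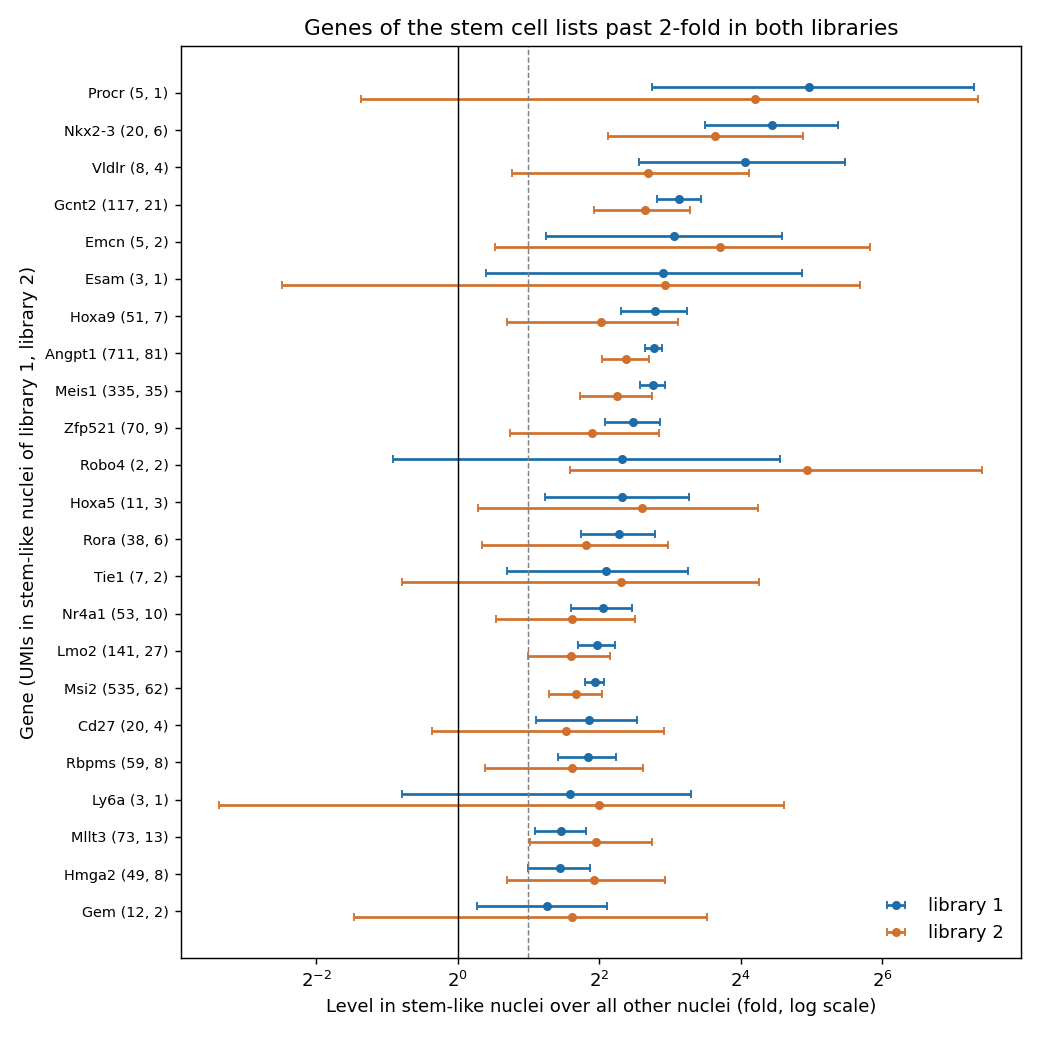
23 of the 25 genes of the stem cell lists that stood at least 2-fold higher in stem-like nuclei of both libraries, with the ratio of their level to that in all other nuclei on a log axis (x) and the UMIs behind it in parentheses (y labels). Blue points are library 1, orange points library 2, bars are 95% counting intervals, and the dashed line marks 2-fold. Angpt1, Meis1, Msi2, Gcnt2 and Lmo2 have narrow intervals, whereas genes with 1 UMI in library 2, such as Procr and Esam, have intervals that cross 1.

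Across all genes, the leading ones were chosen by their ratio in the library where it was nearer to 1. Of 410 genes with at least 20 UMIs in stem-like nuclei of each library, or at least 20 expected there from the other nuclei, 18 (4.39%) were at least 2-fold higher in both libraries and 7 (1.71%) at least 2-fold lower. Of those 18 genes, 17 entered only through their UMIs in stem-like nuclei and so had to be high, and the exception was the predicted gene AC149090.1. Without genes at the ribosomal RNA locus 14 were higher and 9 lower, and under median-of-ratios scaling 12 and 11, so the excess of higher genes depended on the scaling. The median log2 ratio of the 410 genes was 0.17 in library 1 and 0.21 in library 2. Besides Gcnt2, Angpt1 and Meis1, the ranking named Prkg1, the cGMP-dependent kinase, with log2 ratios of 2.83 and 2.32, and Adgrl4, an adhesion receptor of endothelium, with 2.55 and 2.03. Dach1, a transcription cofactor, gave 1.70 and 1.57, and Sik1, a salt-inducible kinase, 1.58 and 1.51. Slco3a1, Atxn1, Fchsd2, Ssbp2, Pde4b, 2610307P16Rik and Ripor2 were between 2.03 and 2.67-fold in library 1 and between 2.01 and 3.11-fold in library 2. Fut8 and Ptpre completed the leading 20, at 2.13 and 2.004-fold in library 1 but 1.97 and 1.92-fold in library 2.

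Several leading genes separated stem-like nuclei from the megakaryocyte set, and others did not. Adgrl4 stood at 1027 CPM in stem-like nuclei and 228 (146 to 339) in the 48 megakaryocyte nuclei of library 1, and at 577 and 212 (110 to 371) CPM with 32 megakaryocyte nuclei in library 2. Msi2 stood at 1350.4 against 446 (328 to 593) CPM and 459 against 141 (61.1 to 279) CPM. By contrast, Angpt1 reached 1594 (1362 to 1855) and 619 (431 to 861) CPM in the megakaryocyte set, and Meis1 968 (789 to 1175) and 195 (97.1 to 348) CPM, with intervals that overlapped those of stem-like nuclei. A difference between the sets could not be tested.

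The 7 genes at least 2-fold lower included granule and calprotectin genes of myeloid cells. Of the 7, all but Mpo entered only through the UMIs expected from the other nuclei, and so had to be low in a library. All 7 were also among the 56 genes lower at the minimum of 200 UMIs over all nuclei. F13a1, the coagulation factor XIII subunit of monocytes, stood at 68.1 against 286 CPM in library 1 and 74.0 against 242 CPM in library 2, log2 ratios of -2.07 and -1.71. The granule proteases Ctsg and Elane gave -1.73 and -1.02 in library 1 and -1.44 and -1.49 in library 2. S100a9 and S100a8, which form calprotectin, gave -1.77 and -1.39 in library 1 and -1.39 and -1.22 in library 2, Mpo gave -1.13 and -1.20, and Gria3, a glutamate receptor subunit, -1.04 and -1.29. The next genes, Atp8b4, Baz1a and Nedd4l, a phospholipid flippase, a chromatin remodeling subunit and a ubiquitin ligase, did not reach 2-fold in library 1, at 0.539, 0.563 and 0.574-fold, and stood at 0.367, 0.506 and 0.486-fold in library 2. At the minimum of 200 UMIs over all nuclei, the 56 lower genes also held the B lineage factor Ebf1, at 0.153 and 0.150-fold, which was named after its values were seen.

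Lists of committed myeloid and B lineage genes, summed over their genes, stood lower. The monocyte list of 6 genes stood at 0.245-fold (0.184 to 0.320) and 0.334-fold (0.201 to 0.523) the level of the other nuclei, and the late neutrophil list of 6 genes at 0.358-fold (0.279 to 0.452) and 0.384-fold (0.280 to 0.514). The primary granule list of 8 genes stood at 0.522-fold (0.465 to 0.583) and 0.485-fold (0.411 to 0.568), and the pro-B list of 10 genes at 0.260-fold (0.224 to 0.300) and 0.423-fold (0.2503 to 0.669). Among them, Ebf1, the factor that commits cells to the B lineage, was at 154 against 1006 CPM in library 1 and 22.2 against 148 CPM in library 2, and Ccr2, the chemokine receptor of monocytes, at 2.52 against 35.97 CPM and 7.40 against 33.9 CPM. Erythroid genes were near 0, with 9 UMIs over 10 genes in library 1 and 2 in library 2, and so were basophil and mast cell genes with 9 and 2 UMIs over 6 genes.

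Some lists of other lineages stood higher. The dendritic list of 8 genes was 1.66-fold (1.504 to 1.82) and 1.61-fold (1.27 to 2.02) above the other nuclei, and 3 genes carried it. Flt3, the cytokine receptor of multipotent progenitors, stood at 343 against 123 CPM and 148 against 84.8 CPM, Runx2 at 369 against 170 CPM and 133 against 69.7 CPM, and Tcf4 at 422 against 345 CPM and 251 against 158 CPM, whereas Siglech, a defining receptor of plasmacytoid dendritic cells, had 0 UMIs in library 1 and 1 in library 2, and Cd74, the class II chaperone, 5 and 0. The megakaryocyte list of 8 genes stood 2.03-fold (1.65 to 2.47) higher in library 1 and 1.02-fold (0.465 to 1.95) in library 2 on 9 UMIs, with 78 of its 106 UMIs in library 1 from Plek. The platelet gene Pf4 had 2 UMIs in library 1 and 0 in library 2, and Gp9, Gp1bb and Ppbp had 0 in both. This list also holds Vwf, Itga2b and Trpc6, with 3, 9 and 14 UMIs in library 1. The rule limits these genes in stem-like nuclei, so the ratio of the list is partly set by the rule. The multipotent and lymphoid list of 10 genes was at 1.17-fold (1.05 to 1.31) and 1.19-fold (0.911 to 1.52), and in library 1 it fell to 0.954-fold under median-of-ratios scaling. Of its genes, 3 stood above the other nuclei in both libraries and 6 below. Flt3 gave 136 of its 344 UMIs in library 1 and 20 of 63 in library 2. Dntt stood at 0.498-fold (0.299 to 0.782) and 0.859-fold (0.278 to 2.02), Il7r had 3 and 0 UMIs, and Rag1 had 0 in both. NK and T cell genes had 14 and 3 UMIs over 8 genes, 1.48-fold (0.798 to 2.54) and 1.82-fold (0.372 to 5.43).

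Because the study examined type I interferon signaling in HSPCs, this program and the cell cycle were described next. The G2/M list of 52 genes stood at 3364 against 4534 CPM in library 1, 0.742-fold (0.702 to 0.784), and at 2833 against 2787 CPM in library 2, 1.02-fold (0.917 to 1.12). The S phase list of 43 genes was at 0.859-fold (0.806 to 0.914) and 1.05-fold (0.934 to 1.19). In library 2 the direction of the G2/M list depended on the scaling, since median-of-ratios scaling gave 0.864-fold. Of 36 G2/M and 35 S phase genes with at least 200 UMIs over all nuclei, 0 were past 2-fold in either direction in both libraries, where 1.95% of all genes were higher and 1.36% lower, so counts of 0 are near that share. The interferon response list of 33 genes stood at 1080.3 against 674 CPM in library 1, 1.60-fold (1.45 to 1.77), and at 695 against 453 CPM in library 2, 1.53-fold (1.24 to 1.88). In library 2 it stood below the other nuclei, at 0.888-fold, once at least 3 marker UMIs were required, which left 24 nuclei. In library 1 the viral RNA sensors Ddx58 and Ifih1 were 5.12-fold (2.85 to 8.70) and 3.60-fold (1.95 to 6.22) higher on 17 and 15 UMIs, with 1 UMI each in library 2. Irf1 stood at 95.9 against 45.5 CPM in library 1 and 22.2 against 34.3 CPM in library 2. Of 9 interferon genes with enough UMIs over all nuclei, 0 were past 2-fold in both libraries, too few genes to read against the 1.95% of all genes. Of these 9, 4 stood above the other nuclei in both libraries and 0 below in both. Of all 4110 genes, 1647 (40.1%) stood above and 826 below. Over the 33 genes with no minimum, only 1 had an interval above 1 in both libraries.

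**Figure D3:**
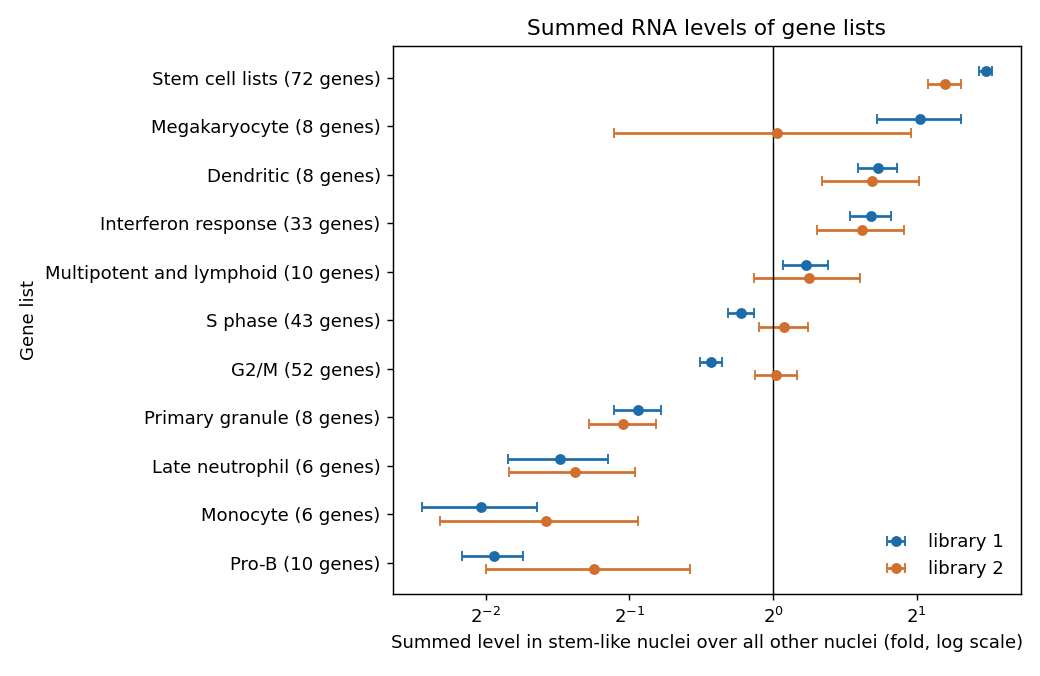
Summed RNA level of 11 gene lists in stem-like nuclei relative to all other nuclei (x axis, log scale), for library 1 (blue) and library 2 (orange), with 95% counting intervals. The stem cell lists are farthest to the right at 2.79 and 2.29-fold, the monocyte list is farthest to the left at 0.245 and 0.334-fold, and the G2/M list stands at 0.742 in library 1 and 1.02 in library 2. The megakaryocyte list holds Vwf, Itga2b and Trpc6, which the rule limits.

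Some stem genes stood at different levels in the libraries, in stem-like and in other nuclei. In stem-like nuclei the level in library 2 relative to library 1 was 0.947 (0.760 to 1.17) for Mecom, 0.855 (0.435 to 1.58) for Prdm16, 0.916 (0.476 to 1.66) for Myct1 and 0.579 (0.416 to 0.792) for Hlf, which the rule used. It was 0.334 (0.262 to 0.421) for Angpt1, 0.306 (0.210 to 0.434) for Meis1 and 0.340 (0.257 to 0.442) for Msi2, whereas in the other nuclei the ratios were 0.437, 0.433 and 0.407. The stem lists together gave 0.426 (0.391 to 0.463) in stem-like and 0.518 in other nuclei, and the median of 376 genes with at least 20 UMIs in stem-like nuclei of each library 0.749 and 0.704. A share of UMIs at the ribosomal RNA locus that differs between the libraries lowers all other levels, and without those genes the ratio of the stem lists was 0.548. Library and condition cannot be told apart, since no condition is known for a library.

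Apart from limits on the total count per nucleus, the rule did not use chromatin accessibility. Each nucleus was compared with its 30 nearest neighbours by ATAC profile within its library, after latent semantic indexing of the peak counts. Of the neighbours of a stem-like nucleus, 36.02% were stem-like on average in library 1, against the 3.49% that the library holds, and 9.54% against 1.02% in library 2, 10.3 and 9.31 times the share in the library. The share followed the marker UMIs, with means of 1.80%, 10.8%, 30.5% and 40.9% for nuclei with 0, 1, 2 and 3 or more marker UMIs in library 1, and 0.675%, 3.75%, 9.21% and 10.3% in library 2. Not all stem-like nuclei stood in such neighbourhoods, as 20 of 206 (9.71%) in library 1 and 19 of 79 (24.1%) in library 2 had no stem-like neighbour. Among the other nuclei, 80.6% and 88.3% had none.

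**Figure D4:**
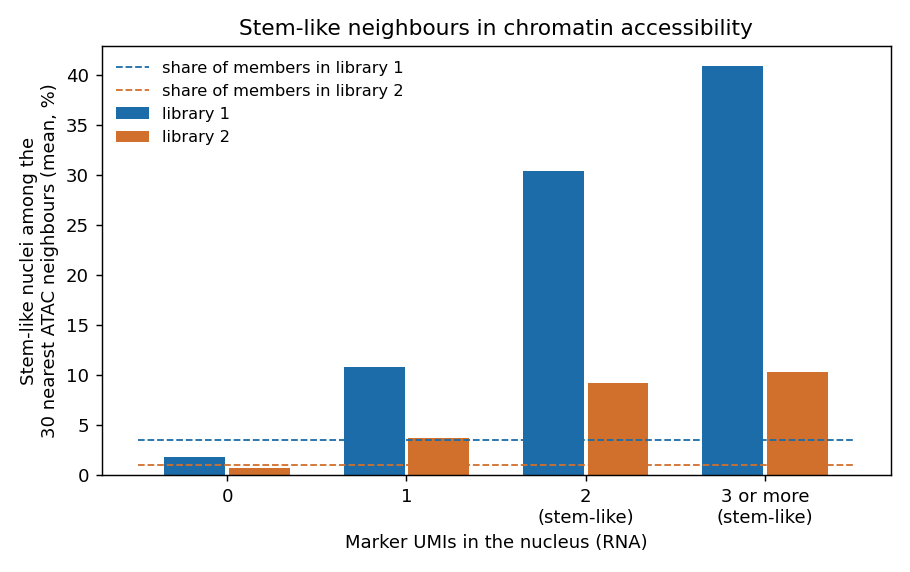
Mean share of stem-like nuclei among the 30 nearest neighbours by ATAC profile (y axis, percent) for nuclei grouped by their marker UMIs in RNA (x axis), in library 1 (blue) and library 2 (orange). Dashed lines mark the share of stem-like nuclei in each library, 3.49% and 1.02%. Bars go from 1.80% to 40.9% in library 1 and from 0.675% to 10.3% in library 2.

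Nuclei with stem-like ATAC neighbours also differed in RNA. A neighbourhood was called rich where the share of stem-like nuclei was over 3 times that of the library, a limit set after the values were seen. It took at least 4 stem-like neighbours of 30 in library 1 but only 1 in library 2, so a rich neighbourhood is not the same in both. In library 1 the stem lists stood at 12048 CPM in the 162 stem-like nuclei with rich neighbourhoods and at 7969.5 CPM in the other 44, and in library 2 at 5531 CPM in 60 and 2941 CPM in 19 nuclei. Nuclei outside the rule but with rich neighbourhoods, 370 in library 1 and 891 in library 2, reached 8529.7 and 3564 CPM, above the 3678 and 1867 CPM of the remaining nuclei. The 44 and 19 stem-like nuclei without rich neighbourhoods also held more pro-B UMIs in library 1, 953 against 309 CPM, and were deeper, with medians of 2098 and 2135 UMIs against 1662 and 1421. They were deeper in ATAC too, with medians of 22195 and 18962 counts against 17686.5 and 13031. The part of depth in their RNA and in their neighbourhoods was not tested.

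Few peaks stood 2-fold apart in both libraries. Of 6788 peaks with at least 40 counts in stem-like nuclei of each library, or 40 expected there, 68 (1%) were at least 2-fold more open in both libraries and 3 (0.0442%) at least 2-fold less open. Of those 68, 17 hold sequence related to the mitochondrial genome, and the remaining 51 entered only through their counts in stem-like nuclei. The 3 less open peaks entered only through the counts expected from the other nuclei. With a minimum of 1000 counts over all kept nuclei of each library, which does not look at the groups, 144 of 25655 peaks (0.561%) were more open and 974 (3.8%) less open, although as few as 9.30 counts were then expected in stem-like nuclei of library 2. Of these, 122 of the 144 more open and 861 of the 974 less open peaks lay away from promoters, against 12575 of all 25655, so peaks past 2-fold in either direction were mostly distal. At 2000 counts these were 23 of 12282 (0.187%) and 89 (0.725%). Mitochondrial sequence in peaks moved with the groups, at 0.222% of the counts of stem-like nuclei against 0.0933% in library 1 and 0.556% against 0.100% in library 2, and 3 nuclei gave 36.7% and 74.5% of these counts of stem-like nuclei. Their part in the results was not tested, but with nuclei over 1% left out 26 peaks were more open and 1 less open. The share of counts in peaks at promoters was 47.6% against 46.7% in library 1 and 47.3% against 45.2% in library 2.

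Results on Mecom, Prdm16, Myct1 and Gata2, and on the peaks with the largest and the smallest ratio among the 6788, turn on 6 peaks. Their sequences are shown. Each is 300 bases on the plus strand of GRCm38 from the centre of the peak, or for Myct1 the bases before its start, and none overlaps an annotated exon. Capitals mark the letters of GATA factors, AGATAA, on either strand. They also mark those of RUNX factors, TGTGGT. In the Gata2 peak they mark the E-box CATCTG as well. In all 6 windows they mark TTNCNNAA, the letters of C/EBP factors, which match 0 times in the most open peak, 3 in Mecom, of which 2 overlap, 1 in Prdm16, 2 in Myct1, 1 in Gata2 and 2 in the least open peak.
most open peak, chr4:139689767-139690066: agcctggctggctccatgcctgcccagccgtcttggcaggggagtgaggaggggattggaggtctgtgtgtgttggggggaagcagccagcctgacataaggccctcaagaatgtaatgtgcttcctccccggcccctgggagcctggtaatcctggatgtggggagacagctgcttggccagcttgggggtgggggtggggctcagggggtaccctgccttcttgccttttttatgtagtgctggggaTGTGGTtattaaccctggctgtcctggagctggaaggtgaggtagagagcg
Mecom intron, chr3:30477054-30477353: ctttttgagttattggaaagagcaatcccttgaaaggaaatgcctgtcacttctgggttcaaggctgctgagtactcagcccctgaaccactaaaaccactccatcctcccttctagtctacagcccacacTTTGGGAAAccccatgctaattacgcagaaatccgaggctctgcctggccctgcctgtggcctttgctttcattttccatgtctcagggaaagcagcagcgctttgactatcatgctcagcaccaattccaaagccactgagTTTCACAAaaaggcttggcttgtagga
Prdm16 intron, chr4:154611231-154611530: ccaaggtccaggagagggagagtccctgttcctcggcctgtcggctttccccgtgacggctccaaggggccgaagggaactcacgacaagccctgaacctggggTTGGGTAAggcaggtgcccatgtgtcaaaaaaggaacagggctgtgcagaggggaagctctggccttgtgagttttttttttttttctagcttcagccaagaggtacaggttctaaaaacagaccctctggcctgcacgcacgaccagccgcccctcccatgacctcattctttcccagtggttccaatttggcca
Myct1 upstream, chr10:5593475-5593774: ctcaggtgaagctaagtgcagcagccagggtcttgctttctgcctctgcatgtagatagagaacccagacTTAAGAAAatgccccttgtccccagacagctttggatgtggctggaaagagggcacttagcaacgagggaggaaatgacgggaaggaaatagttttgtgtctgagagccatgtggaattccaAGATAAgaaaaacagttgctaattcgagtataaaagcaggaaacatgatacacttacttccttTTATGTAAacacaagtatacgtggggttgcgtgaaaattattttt
Gata2 intron, chr6:88203140-88203439: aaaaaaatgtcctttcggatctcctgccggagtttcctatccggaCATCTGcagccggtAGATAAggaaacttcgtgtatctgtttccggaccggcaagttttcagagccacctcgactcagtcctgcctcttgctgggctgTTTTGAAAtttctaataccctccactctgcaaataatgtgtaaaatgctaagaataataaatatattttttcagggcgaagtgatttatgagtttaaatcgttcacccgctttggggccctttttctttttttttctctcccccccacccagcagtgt
least open peak, chr17:43138101-43138400: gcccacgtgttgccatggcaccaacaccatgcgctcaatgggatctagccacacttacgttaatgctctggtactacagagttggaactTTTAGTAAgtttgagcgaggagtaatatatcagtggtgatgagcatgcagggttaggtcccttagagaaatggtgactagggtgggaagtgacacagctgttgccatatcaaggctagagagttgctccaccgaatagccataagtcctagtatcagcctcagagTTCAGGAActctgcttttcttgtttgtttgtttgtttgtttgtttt

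Each rule gene had a peak with more counts in stem-like nuclei, picked for the largest ratio at its locus. The peak at the start of Myct1 (chr10:5593213-5594093), whose upstream bases hold 1 GATA motif, gave 17.9 against 4.11 ATAC counts per 1000000 (CPM) in library 1 and 20.9 against 4.93 in library 2, 4.35-fold (2.96 to 6.22) and 4.23-fold (2.20 to 7.42). A peak in an intron of Mecom (chr3:30476765-30477642), 32.5 kb from an annotated start, was 3.74-fold (2.05 to 6.37) and 5.36-fold (2.12 to 11.3) more open on 31 and 14 counts. In Prdm16, an intron peak (chr4:154610944-154611818) 25.5 kb from a start was 3.74-fold (1.54 to 7.82) and 6.96-fold (2.20 to 17.0) more open on 16 and 10 counts. Neither of these intron windows held the GATA or RUNX letters. Near Hlf, a peak 51.7 kb from its start (chr11:90442125-90442998) was 4.68-fold (1.70 to 10.8) and 3.80-fold (0.450 to 14.4) more open on 13 and 4 counts. They come from 57, 44, 26 and 30 peaks in or within 100 kb of Mecom, Prdm16, Myct1 and Hlf, of which 6, 8, 6 and 1 were at least 2-fold more open in both libraries and 3, 1, 1 and 5 at least 2-fold less open. Of all 174339 peaks with no minimum, 3.06% were 2-fold more open in both libraries and 14.6% less open. With a minimum of 10 counts in each library, set after the values were seen, the Hlf peak gave way to one 27.2 kb from the start (chr11:90417627-90418529) at 1.48-fold (1.13 to 1.92) and 1.42-fold (0.814 to 2.29), and the others stayed the same. Summed over promoters, 1 kb each side of the starts, Myct1 stood at 3.34-fold (2.33 to 4.66) and 3.36-fold (1.82 to 5.69) and Prdm16 at 2.15-fold (1.65 to 2.77) and 1.98-fold (1.23 to 3.03). Mecom stood at 1.52-fold (1.23 to 1.85) and 1.19-fold (0.790 to 1.73) and Hlf at 1.33-fold (0.984 to 1.77) and 1.74-fold (1.07 to 2.67), each with 1 interval that spans 1. At the Myct1 promoter the megakaryocyte set reached 42.4 (25.9 to 65.5) and 24.7 (10.3 to 49.7) CPM against 19.9 (14.2 to 27.2) and 23.4 (12.8 to 39.2) in stem-like nuclei, and the pro-B set 1.01 and 0.640. The Mecom promoter stood at 52.8 and 46.8 CPM in stem-like nuclei. It was close to that in nuclei with 1 marker UMI, 52.4 and 48.1, and in the megakaryocyte set, 52.0 and 56.0. For Hlf the megakaryocyte set stood at 37.1 and 34.6 CPM against 25.8 and 35.1 in stem-like nuclei. For Prdm16 it stood at 22.3 and 31.3 against 33.2 and 35.9.

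Among peaks with more counts, an intergenic one 36.4 kb from Tas1r2 (chr4:139689463-139690371) had the largest ratio. It gave 32.2 against 4.18 CPM in library 1 and 35.1 against 4.60 in library 2, 7.69-fold (5.73 to 10.2) and 7.63-fold (4.65 to 11.9), came from 48 and 20 stem-like nuclei, and holds 1 RUNX motif in its centre. The intron peak of Gata2, a factor needed for stem cell emergence, at chr6:88202837-88203742 was 3.21-fold (2.47 to 4.11) and 3.59-fold (2.30 to 5.36) more open, whereas the Gata2 promoter was 1.40-fold (1.10 to 1.76) and 1.25-fold (0.799 to 1.87). Its centre holds an E-box followed after 8 bases by a GATA motif, the composite element of the well-studied Gata2 intronic enhancer. F2rl3, a thrombin receptor, was 3.40 and 3.23-fold more open at its start (chr8:72761268-72762082), Mdga1 3.45 and 4.76-fold in an intron (chr17:29859644-29860520), and Cables1 3.54 and 3.86-fold in an intron. A peak in Mgat4b (chr11:50232684-50233571), 5.3 kb from the start of the leukotriene synthase Ltc4s, was 3.70 and 6.47-fold more open, and intergenic peaks near Gm17581 (chr2:155742732-155743631) and Egln3 (chr12:54162473-54163388) were 3.44 and 3.23-fold in library 1 and 4.34 and 3.09-fold in library 2. The remaining pair of the leading 10, at chr2:69355155-69356053 and chr1:188977923-188978819, holds mitochondrial sequence, and in library 2 single nuclei gave 51.4% and 46.5% of their counts.

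Among the same 6788 peaks, the least open was intergenic near Tnfrsf21 (chr17:43137834-43138668) at 0.213-fold (0.112 to 0.369) and 0.257-fold (0.0890 to 0.578). Next were peaks in an intron of Cadm1 (chr9:47733672-47734603) at 0.267 and 0.193-fold and in an intron of Hivep3 (chr4:119966287-119967216) at 0.309 and 0.327-fold. A peak 18.5 kb from Ccm2l (chr2:153084035-153084937) and one at the start of Cmtm7 (chr9:114781358-114782193) followed without reaching 2-fold, at 0.511 and 0.563-fold in library 1 and 0.554 and 0.535-fold in library 2. Each peak named here entered only through the counts expected from the other nuclei, and so had to be low in library 2. The 3 past 2-fold were also among the 974 of 25655 peaks less open at the minimum of 1000 counts over all kept nuclei. The 974 peaks were not ranked here.

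Few promoters were past 2-fold. Of 8098 promoters with enough counts, 8 (0.0988%) were at least 2-fold more open in both libraries and 0 (0%) at least 2-fold less open. These were Clu, Ctla2a, F2rl3, Sla2, Vamp8, the predicted genes Gm41231 and Gm41638 and, with mitochondrial sequence, Gm20594. Of the 27 stem list promoters among the 8098, 0 were past 2-fold and 15 (55.6%) stood above 1 in both libraries, against 34.8% of all promoters. The promoter of Angpt1, the stem list gene with the most UMIs in stem-like nuclei of both libraries, was at 0.815-fold (0.527 to 1.21) and 0.620-fold (0.238 to 1.32), and those of Meis1 at 1.36 and 1.37-fold and Gcnt2 at 1.02 and 1.36-fold. The promoters of Angpt1 and Meis1 held 13 and 33 counts in stem-like nuclei of library 2. These were not enough to place them among the 27. Other low-count promoters of stem list genes, named after their values were seen, varied. Hoxa5 stood at 2.87-fold (1.72 to 4.55) and 3.10-fold (1.28 to 6.32) and Nkx2-3 at 3.31-fold (1.98 to 5.23) and 2.24-fold (0.772 to 5.11), whereas Procr stood at 1.09 and 0.969-fold, Esam at 1.62 and 0.857-fold and Sox6 at 0.914 and 0.570-fold. Outside promoters, gene bodies of the stem lists varied as well, with Meis1 at 1.66 and 1.40-fold, Angpt1 at 1.15 and 0.776-fold and Erg at 0.849 and 0.849-fold. The promoter of the protease Ctsg was at 0.274-fold (0.100 to 0.600) and 0.230-fold (0.0279 to 0.835).

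Motifs in the more open peaks differed from those in the less open ones. Letters were searched on both strands in the 300-base centres of peaks away from promoters and without mitochondrial sequence that had at least 1000 counts over all nuclei of each library. The GATA letters AGATAA were present in 26.1% (18.2 to 35.3%) of the 111 more open peaks, 11.96% (9.87 to 14.3%) of the 861 less open and 10.9% of all 12553. The RUNX letters TGTGGT were present in 53.2% (43.4 to 62.7%), 36.4% (33.1 to 39.7%) and 34.04%. TTNCNNAA, the letters of a C/EBP site, was present in 41.4% (32.2 to 51.2%), 68.6% (65.4 to 71.7%) and 49.6%. The interval of the more open peaks included the 49.6% of all, so TTNCNNAA was not clearly lower in them. With the minimum of 40 counts in stem-like nuclei, 45 distal peaks without mitochondrial sequence were more open. It was in 37.8% of those and in 38.3% of the 785 compared. These 45 peaks entered only through their counts in stem-like nuclei, so no conclusion is drawn from them. The AP-1 letters TGACTCA were in 19.8% (12.9 to 28.5%), 13.5% and 10.5%, the ETS letters GGAAGT in 36.9% (27.97 to 46.6%), 49.4% and 43.2%, and the MEIS letters TGACAG in 31.5% (23.0 to 41.0%), 26.7% and 24.2%. TTACGTAA, the site of Hlf and its family, was in 0 of 111, 0.348% and 0.223%. Every TTACGTAA is also a TTNCNNAA. Base composition was not matched between these sets, its part in the shares was not tested, and a match is not a bound site.

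**Figure D5:**
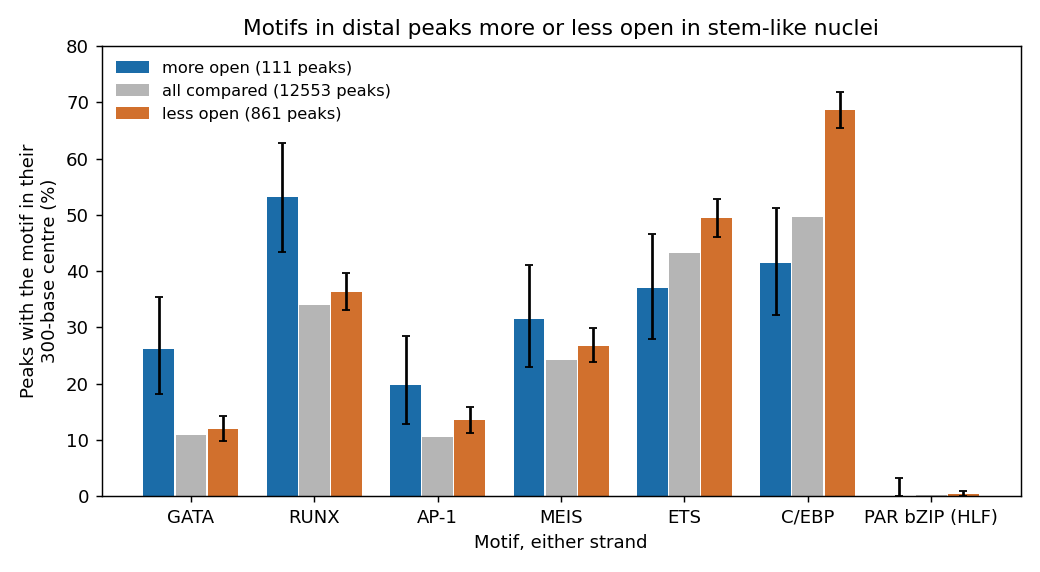
Share of peaks (y axis, percent) whose 300-base centre holds each motif on either strand (x axis), for the 111 distal peaks more open in stem-like nuclei (blue), all 12553 distal peaks compared (grey) and the 861 less open (orange), with 95% binomial intervals for the more and the less open peaks. GATA letters stand at 26.1% against 10.9% of all, RUNX at 53.2% against 34.04%, and C/EBP letters at 68.6% in less open peaks against 49.6% of all.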

How the data were processed

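RNA and ATAC were measured in the same nuclei of pooled Lin-cKit+ bone marrow cells, 1 sample per group. The authors deposited 1 matrix of counts, made with Cell Ranger ARC 2.0.0 on GRCm38, with UMI counts of 32272 genes and ATAC counts in 174339 peaks shared by all nuclei. The submitters' processing notes also name Seurat 4.0.3 and Signac 1.3.0. Nuclei were kept by the limits in the report, and no doublet caller was run. From these deposited counts, sums over stem-like and other nuclei were formed in each library and given as counts per 1000000 UMIs or ATAC counts (CPM). Ratios are plain, with no pseudocount. Intervals are exact Poisson, binomial or conditional binomial at 95%, those of ATAC on pairs of counts. Depth was 396195 and 135192 UMIs in stem-like nuclei, so 3 counts correspond to 7.57 and 22.2 CPM. Named genes were the rule genes, stem list genes past 2-fold in both libraries and the 20 highest and 10 lowest genes. Named peaks were the 10 most and 5 least open of the 6788, and the most open peak at each rule gene. Others, and sequences, were chosen after their values were seen, as were gene body sums, the limit on neighbourhoods, minimums over all nuclei and the search for mitochondrial sequence with BLAST 2.17.0. The members and lists were chosen with earlier results of these data known. Gene places follow GENCODE, in which 99.6% of gene IDs were found. Python 3.11.15, numpy 2.4.6, scipy 1.17.1 and scikit-learn 1.9.0 were used, and the calculation was tested on simulated data. Alternatives changed the nuclei, the rule, the scaling, the minimum counts, the fold, the neighbour settings and the motif window. Results of some genes are not reported here.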

Additional observations from a re-analysis of the deposited data

How the results depend on the processing

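No paired analysis was possible because each group has 1 sample and no label ties a library to a group, and for the same reason no replicate could be left out. With at least 500 genes per nucleus, stem-like shares were 4.70% and 1.91%, 5 genes were higher and 4 lower, 2 stem genes with enough UMIs were higher, the library ratio of the stem lists was 0.387, 19 peaks (15 with mitochondrial sequence) were more open and 0 less, and 6 of 10 stem promoters stood above 1 in both libraries, against 43.1% of all. Thinned to 1000 UMIs, the same values were 2.26% and 0.594%, 4 and 2 genes, 2 stem genes, 3 (2 mitochondrial) and 0 peaks and 3 of 5 promoters against 55.2%, with G2/M ratios of 0.622 and 1.17. With at least 3 marker UMIs they were 1.86% and 0.311%, 4 and 1 genes, 2 stem genes, a library ratio of 0.380, 7 (all 7 mitochondrial) and 0 peaks and 1 of 2 promoters against 55.2%, and the interferon ratio of library 2 turned to 0.888. With at least 2 different marker genes they were 2.39% and 0.622%, 9 and 7 genes, 3 stem genes, 10 (9 mitochondrial) and 0 peaks and 5 of 8 promoters against 42.3%. Without the ribosomal RNA locus the library ratio was 0.548 and the G2/M ratio of library 1 was 0.674. Median-of-ratios scaling gave 12 higher and 11 lower genes, a library ratio of 0.568, G2/M ratios of 0.605 and 0.864 and turned the multipotent and lymphoid list of library 1 to 0.954. A minimum of 50 UMIs gave 5 and 1 genes, and 200 UMIs over all nuclei, added after seeing the data, 80 and 56 with 10 stem genes. For peaks, 100 counts gave 10 (all 10 mitochondrial) and 0, a 1.5-fold limit 163 and 16, and, added after seeing the data, 1000 counts over all nuclei 144 and 974, 2000 counts 23 and 89, and leaving out nuclei over 1% mitochondrial sequence 26 and 1. In whole peaks GATA letters were in 45.6% and RUNX letters in 57.4% of the 68 more open peaks, against 27.9% and 39.7% in their central 300 bases. Whole peaks held them in 15.004% and 30.9% of those compared, 26.3% and 52.2% of the distal ones among these and 35.1% and 54.5% of all. Fewer nuclei and fewer genes passing the minimum lower many of these counts by construction, and the cause of the other changes was not tested. Of 480 values of the leading genes, chosen for large ratios, 71 moved beyond their interval and 0 changed direction, of 182 list values 31 moved and 2 reversed, and of the values of the main comparisons 58 moved and 66 did not. A ratio counted as reversed only where it crossed 1 and its main interval left out 1. The G2/M ratio of library 2, with an interval that spans 1, therefore counted as moved at 0.864.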

Other observations

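Further genes, chosen after their values were seen from those with at least 200 UMIs over all nuclei, also stood higher in stem-like nuclei of both libraries. Calcrl, a receptor of calcitonin gene-related peptide and adrenomedullin, stood 3.43 and 4.24-fold higher in libraries 1 and 2, and Rgs1, a regulator of G protein signaling, 3.93 and 4.28-fold. The transcription factors Eya1, Nr4a2 and Ikzf2 stood 4.64, 3.61 and 3.56-fold higher in library 1 and 3.09, 3.07 and 2.91-fold in library 2. Dnmt3b, a DNA methyltransferase, stood 3.57 and 2.65-fold higher, and Adgrg1, an adhesion receptor, 2.11 and 2.72-fold. They were not compared with any list.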
